A study of Homo sapiens with 3 samples.

Results

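The 39 genes of the 4 human HOX clusters were examined in a list of genomic regions bound by ZBTB11, a BTB zinc-finger protein, in NCI-H1299 lung cancer cells. The paper describes this line as p53-null. The members were all protein-coding GENCODE genes whose symbol is HOXA, HOXB, HOXC or HOXD followed by a number, 39 of 20033 protein-coding genes. HOXA holds 11 of them on chromosome 7, HOXB 10 on chromosome 17, HOXC 9 on chromosome 12 and HOXD 9 on chromosome 2. For each gene the ZBTB11 peak with the smallest p-value within 3 kb of any annotated transcript start was taken, and all peaks between the outermost genes of each cluster were listed. The chromatin immunoprecipitation sequencing (ChIP-seq) used wild-type, untreated NCI-H1299 cells, an established line, with 1 library for a ZBTB11 antibody and 1 for normal IgG, and an Input library that was not analysed here. With 1 library per antibody there was no replicate check and no test between conditions, and every interval below covers counting error only.

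HOX genes encode homeodomain transcription factors that give cells their position along the head-to-tail axis of the embryo. Within each cluster the genes lie in the order in which they act along that axis, from anterior paralog groups to posterior ones, and they all read in 1 direction, with non-coding RNA genes between them. The clusters are classic targets of Polycomb and trithorax proteins, which hold them silent or active, and many tumours keep or regain a part of their embryonic HOX expression. RNA was not measured in these libraries, so whether any of the 39 genes was active in the cells is not known here.

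The study derived a consensus for this factor, CC/AGGAAG, de novo from ZBTB11-high peaks of its ChIP-seq. Short stretches under the strongest HOX peaks are shown first, because 5 of these peaks carried its letters, and 4 of the 5 are given. Each is 101 bases of hg38 centred on the peak's summit, plus strand, with the consensus in capitals, which reads CTTCCGG where it lies on the minus strand. No base shown is annotated as UTR.
HOXC4 and HOXC6, chr12:54018157-54018257: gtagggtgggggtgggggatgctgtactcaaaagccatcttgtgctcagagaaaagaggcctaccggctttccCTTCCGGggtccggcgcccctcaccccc
HOXA7, chr7:27156063-27156163: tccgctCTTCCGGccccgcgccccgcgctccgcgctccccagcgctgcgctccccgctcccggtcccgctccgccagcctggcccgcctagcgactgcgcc
HOXB7 and HOXB8, chr17:48610468-48610568: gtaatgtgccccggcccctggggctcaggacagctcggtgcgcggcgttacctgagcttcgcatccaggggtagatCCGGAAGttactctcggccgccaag
HOXA5 and HOXA3, chr7:27142411-27142511: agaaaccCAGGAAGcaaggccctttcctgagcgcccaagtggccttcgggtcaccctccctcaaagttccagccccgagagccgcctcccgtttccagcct
The centre of CCGGAAG lay 26 bases above the summit position at HOXC4 and HOXC6, 41 below it at HOXA7 and 29 above it at HOXB7 and HOXB8. At HOXA5 and HOXA3 the letters were CAGGAAG, 40 bases below the summit. For contrast, 2 strong peaks without an exact copy of the consensus within 50 bp of their summit are given. The stretch at HOXC9 has nothing marked, but near its left end it holds the consensus with only the last letter changed. The stretch in an intron of HOXD3 has a match to the core of the motif of CTCF, the insulator protein, in capitals. Both stretches also hold, unmarked, the core of the GC box bound by SP-family factors.
HOXC9, chr12:53995654-53995754: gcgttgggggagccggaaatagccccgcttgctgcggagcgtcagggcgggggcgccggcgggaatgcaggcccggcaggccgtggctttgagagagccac
HOXD3, chr2:176140642-176140742: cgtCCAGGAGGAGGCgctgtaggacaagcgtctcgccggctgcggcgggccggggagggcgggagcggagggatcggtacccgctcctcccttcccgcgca

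The deposited lists held 348392 ZBTB11 peaks and 27877 IgG peaks, and the ZBTB11 list covered all 24 main chromosomes while the IgG list covered 4 of them, none with a HOX cluster. The p-value of a peak compares the fragments at its summit with the local background of the same library. Fragment numbers were recovered from the deposited fold and p-value, and the median ZBTB11 peak rested on 5.0 fragments, with a range from 3 to 515. On the 4 chromosomes with IgG peaks, 1067 genes had a GC content within the range of the HOX genes. Of these, 67% had an IgG peak within 3 kb of a start and 85.9% a ZBTB11 peak, whereas at p 1e-05 or less the shares were 1.59% and 40.8%. No such gene had an IgG peak at p 1e-10 or less, which allows a share of up to 0.281%. Peaks of p 1e-05 or less are called strong from here on, and a weaker peak is of a strength at which the IgG library also listed peaks near most genes.

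To ask how often ZBTB11 peaks lay near HOX genes, shares were read beside all other protein-coding genes, for which the percentages give the background. A peak lay within 3 kb of a start of 34 of 39 HOX genes, 87.2% (Wilson 95% interval 73.3 to 94.4), against 87.7% of the other 19994 genes and 88.4% of genes whose windows had a GC content within 2 percentage points. At p 0.01 or less the count was 32, against a background of 79.7%. A strong peak lay near 17 HOX genes, 43.6% (29.3 to 59.0), against 46.9% of all other genes and 46.9% of genes of similar GC. At each of these p limits the background lay within the interval of the HOX share. With the q-value limited to 0.05 the count was also 17, against 55.3%, and the HOX share lay 11.8 percentage points below that of genes of similar GC (interval of the difference −26.1 to 3.62). This difference was −22.0 points (−36.3 to −6.55) beside genes of similar CpG content, −16.5 (−30.8 to −1.06) with GC taken from 500 bp each side of the gene start and −18.2 (−30.4 to −2.53) with only the 5′ end of each gene as its start. These intervals take each gene as independent, although the 17 HOX genes with a strong peak rest on 14 peaks.

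Among the strongest peaks the HOX shares were lower than the background in value. At p 1e-10 or less 10 HOX genes remained, 25.6% (14.6 to 41.1), against 31.9%, a value within the interval. The stricter limits that follow were chosen after the data had been seen. At p 1e-20 or less 3 remained, 7.69% (2.65 to 20.3), against 21.7% of all other genes and 21.4% of genes of similar GC, which would correspond to 8.34 genes of 39. These 3 were HOXC4 and HOXC6, which share 1 peak, and HOXC9, all in the HOXC cluster. At p 1e-50 or less HOXC4 and HOXC6 were left, 5.13% (1.42 to 16.9) against 11.9%, and at p 1e-100 or less none, against 6.99%. A count of 0 of 39 allows a share of up to 7.69%, so the absence of this last class was not detectable as a difference.

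**Figure D1:**
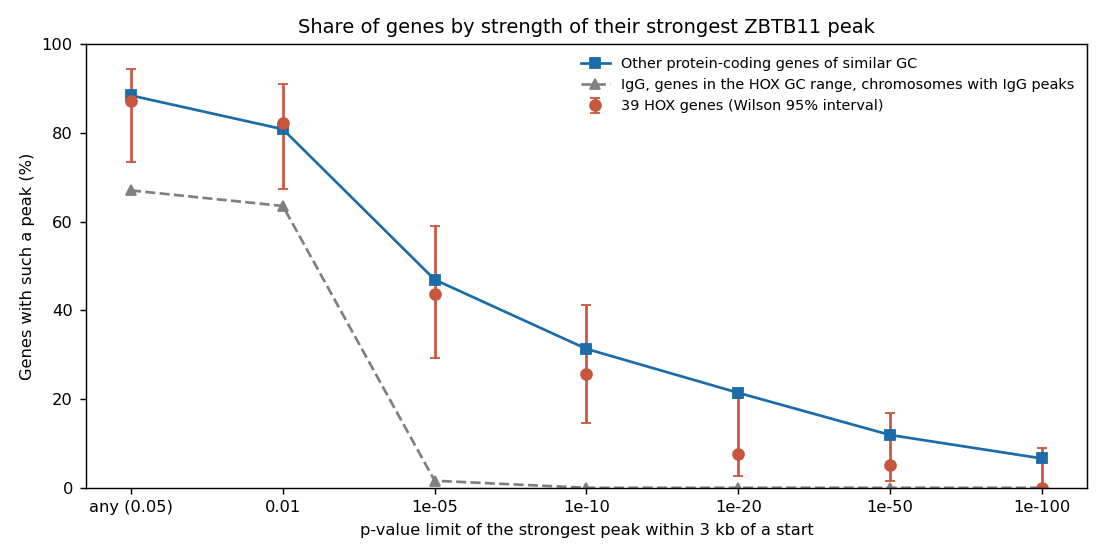
Share of genes (%) whose strongest ZBTB11 peak within 3 kb of a start reached each p-value limit on the horizontal axis, for the 39 HOX genes (points with Wilson 95% intervals), for other protein-coding genes of similar GC (squares) and for IgG peaks at genes in the HOX GC range (triangles). The HOX point sits near the squares up to p 1e-05, at 43.6% against 46.9%, and its interval ends just under them at p 1e-20, a limit chosen after the data had been seen, at 20.3% against 21.4%.

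The median HOX gene had a strongest peak of −log10 p 3.45, with genes without a peak entered as 0, against 4.55 for all other protein-coding genes. HOX windows differed from the rest in composition and size. Their median GC content was 53.6% against 46.7%, their CpG content 3.9 against 1.92 per 100 bp, and they had a median of 2 starts and 6664 bp of window per gene against 5 starts and 12089 bp. Per length, the merged windows held 16.9 summits per 100 kb (exact Poisson interval 12.7 to 22) at HOX genes and 14.6 elsewhere, and 5.0 strong summits (2.86 to 8.11) against 2.79. These rates were not matched on GC or CpG content. Beside genes of similar CpG content instead of GC, the comparison shares were higher, at 56.1% for a strong peak, and the HOX share of 43.6% lay further below it. Beside genes of similar GC whose windows also had a similar length, an alternative added after the data had been seen, the shares were 43.8% for a strong peak and 84.1% for any peak, with a median of 4.17.

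Peak strength varied between the 4 clusters, as the grid of values by cluster and paralog group shows. HOXC carried the strongest peaks, with a median −log10 p of 7.67 over 9 genes and 5 strong. HOXA followed at 5.33 over 11 genes with 6 strong, and HOXB at 4.39 over 10 genes with 5 strong. HOXD had the weakest, 2.57 over 9 genes, with 1 strong. Without HOXD, 53.3% of the remaining 30 HOX genes had a strong peak, against 46.8% of genes of similar GC. These are values of single loci in 1 library, and members that lie close together share peaks: 8 genes share 4 strongest peaks, so that the 34 genes with a peak rest on 30 peaks.

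**Figure D2:**
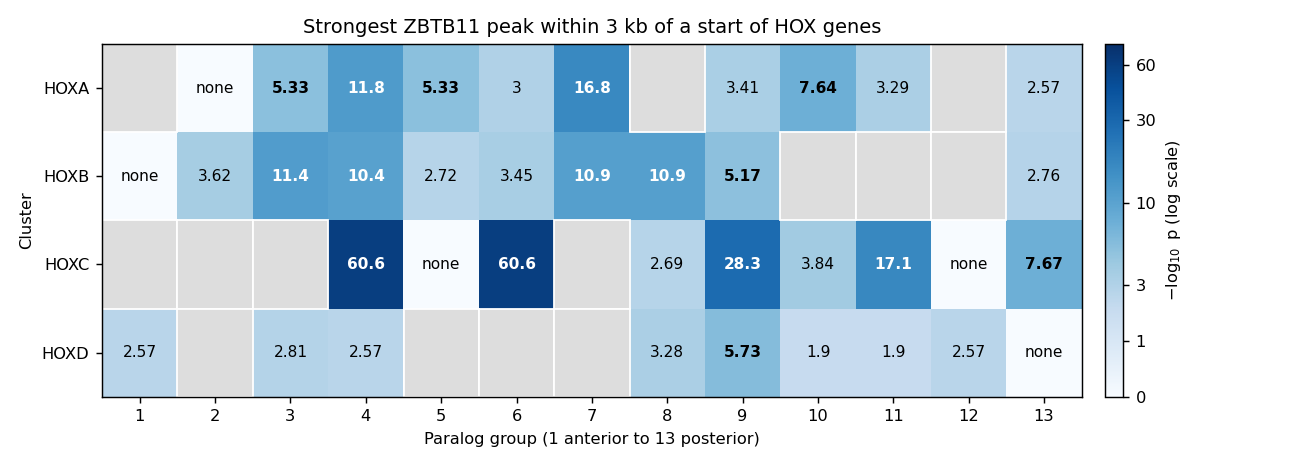
Strongest ZBTB11 peak within 3 kb of a start of HOX genes, as −log10 p, with clusters in rows and paralog groups in columns (grey: no such gene, or not shown; none: no peak; bold: p 1e-05 or less; colour on a log scale). HOXC4 and HOXC6 stand highest at 60.6, and HOXD9 at 5.73 is the one bold entry of the HOXD row.

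In the HOXC cluster the peak shared by HOXC4 and HOXC6, patterning genes of the cervical to thoracic region, held 101 fragments (exact Poisson interval 82.3 to 123.0) over a local background of 11, an enrichment of 8.52-fold. It lies at chr12:54017754-54018638 in introns of both genes, 1276 bp downstream of a HOXC4 start and 2310 bp downstream of a HOXC6 start, and ranked 1817 among the peaks of the library. A second peak of 64 fragments and −log10 p 28.0 lay in an intron of HOXC6 with its summit 4020 bp away. The local background at both, 11 fragments, was the highest of the cluster, whose median was 2.19.

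HOXC9, a thoracic patterning gene, had 3 strong peaks with summits within 4784 bp. The strongest held 52 fragments (38.8 to 68.2) at −log10 p 28.3, 195 bp downstream of a start and within an exon of the antisense RNA gene HOXC-AS2. Another with 42 fragments and −log10 p 19.8 lay in a coding exon of HOXC9, and the third, of 25 fragments, in an intron at 7.4. HOXC11, which acts in the posterior trunk and limb, had a peak of 24 fragments at 17.1, and this summit also lay 263 bp downstream of the start of HOTAIR, a long non-coding RNA read from the opposite strand. HOXC13, required for hair formation, had a peak of 15 fragments at 7.67, 546 bp upstream of its start. The remaining HOXC genes had 3.84 (HOXC10), 2.69 (HOXC8) or no peak (HOXC5 and HOXC12). The absence at HOXC5 rests on its 1 GENCODE start. RefSeq gives HOXC5 the same promoter as HOXC4, upstream of the peak shared by HOXC4 and HOXC6.

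In the HOXA cluster the highest value was at HOXA7, with 24 fragments (15.4 to 35.7) at −log10 p 16.8 and a fold of 7.41, 115 bp upstream of a start and in an intron of the gene. HOXA4 followed with 18 fragments at 11.8, 315 bp upstream of its start. HOXA10, known for its role in uterine development, had 11 fragments at 7.64 in its 5′ UTR, 272 bp downstream of a start. HOXA5, active in lung development, and HOXA3 shared a peak of 9 fragments at 5.33. Weak peaks were found at other genes of the cluster, HOXA9 at 3.41, HOXA11 at 3.29, HOXA6 at 3.0 and HOXA13 at 2.57, and HOXA2, a gene of the hindbrain and second pharyngeal arch, had none.

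In the HOXB cluster the values were more even, and none of the strong peaks exceeded 23 fragments. HOXB3 had 23 fragments at 11.4, with the summit 3390 bp upstream of its nearest start, where the edge of the peak reached into the 3 kb window. HOXB4, a gene used to expand blood stem cells, had 23 fragments at 10.4, 863 bp upstream of its start. This summit also lay 144 bp downstream of a HOXB3 start. HOXB7 and HOXB8 shared a peak of 22 fragments at 10.9, which lies in an intron of HOXB7. HOXB9 had 12 fragments at 5.17 in its intron. HOXB2 at 3.62, HOXB6 at 3.45, HOXB13 at 2.76 and HOXB5 at 2.72 were weak, and HOXB1, an early hindbrain gene, had no peak.

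In the HOXD cluster HOXD9 alone had a strong peak within 3 kb, of 11 fragments (5.49 to 19.7) at 5.73, 71 bp downstream of its start and over its coding exon. The strongest peaks of the other HOXD genes held 4 to 7 fragments, with HOXD8 at 3.28, HOXD3 at 2.81, HOXD1, HOXD4 and HOXD12 each at 2.57, and HOXD10 and HOXD11 sharing 1 peak at 1.9. HOXD13, the digit and genital patterning gene at the end of the cluster, had none. Just outside the 3 kb limit, an intron of HOXD3 held a peak of 16 fragments at −log10 p 9.88, 3735 bp downstream of the nearest HOXD3 start, at chr2:176140367-176140929. It is the second stretch without the consensus shown above.

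By position along the body axis, 3 of 8 anterior genes (paralog groups 1 to 3) had a strong peak, 8 of 15 central genes (groups 4 to 8) and 6 of 16 posterior genes (groups 9 to 13), with median −log10 p of 3.22, 5.33 and 3.35. The background for a strong peak was 46.9% of other protein-coding genes. Among the central genes HOXC4 and HOXC6 rest on 1 shared peak, as do HOXB7 and HOXB8. Group 4 had 3 strong genes of 4 with a median of 11.1, and group 7 both of its genes with a median of 13.85. Groups 2 and 12 had no strong gene among 2 each. The groups hold 2 to 4 genes and were not tested against each other.

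**Figure D3:**
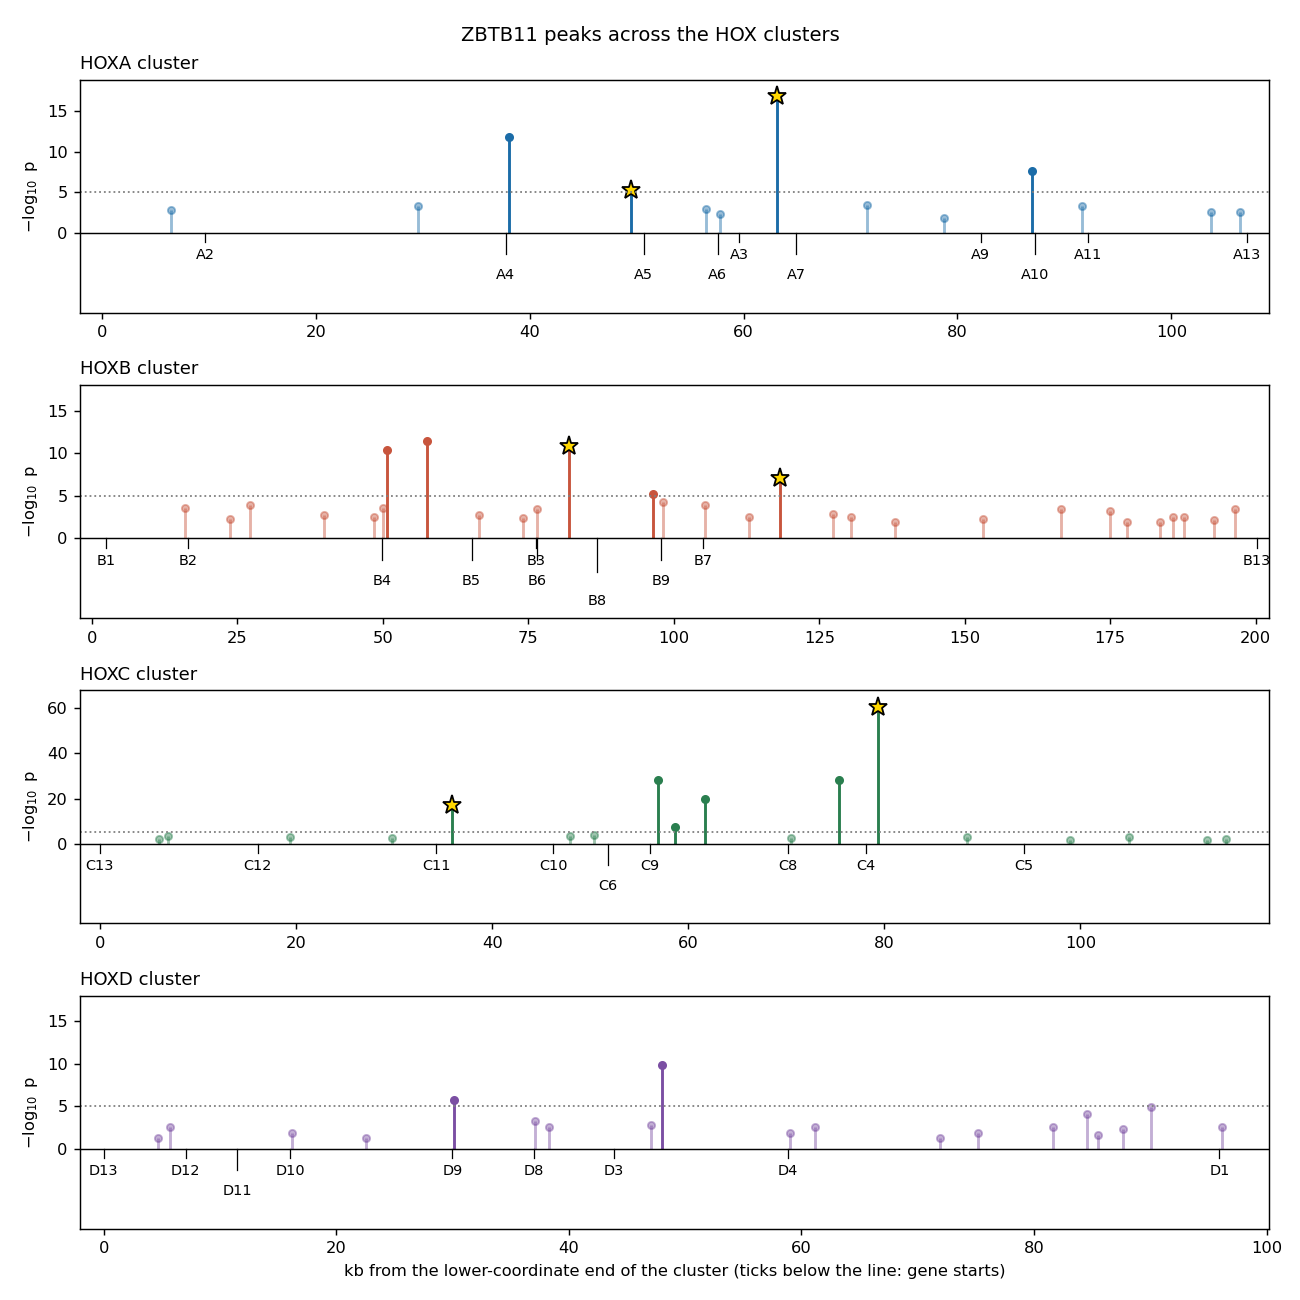
ZBTB11 peaks across the 4 clusters, by summit distance in kb from the lower-coordinate end of the cluster, with −log10 p as height (the HOXC axis reaches higher), strong peaks in full colour, the dotted line at p 1e-05, gene starts below the line and stars on strong peaks with CCGGAAG or CAGGAAG within 50 bp of the summit. The HOXC peaks at 28.3, 28.0 and 60.6 stand above all peaks of the other clusters, and 6 of the 18 strong peaks carry a star. A few peaks at the left end of HOXA are not drawn.

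Measured to each gene's own starts, the strong HOX peaks lay further away than those of other genes. Of the 17 HOX genes with a strong peak, 7 had its summit within 500 bp of one of their own starts, 41.2% (21.6 to 64.0), with a median distance of 691 bp. Among other genes whose strong peak was no stronger than the top HOX peak the share was 81.7%, with a median of 144 bp, and among those of similar GC it was 78.2%. Other genes have more annotated starts. For genes with 1 or 2 starts the shares were 28.6% (8.22 to 64.1, 7 genes) for HOX and 66.9% for the others, with the end of the HOX interval under the comparison. Peaks shared by several HOX genes are counted for each of them here. Some of these summits lay nearer a start of another gene, as at HOTAIR, or as the HOXB4 peak lay nearer a start of HOXB3. Counted once each and measured to the start of any HOX gene, 9 of the 18 strong peaks of the clusters lay within 500 bp, a count with no comparison in other genes. This distance was chosen for description after the HOX peaks had been seen.

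Across the clusters from first to last gene there were 81 peak summits, of which 46 lay in introns, 11 in coding exons, 9 in UTRs, 9 in non-coding exons and 6 between genes. HOXA had 15 peaks or 14 per 100 kb (7.84 to 23.1), HOXB 29 or 14.5, HOXC 18 or 15.4 and HOXD 19 or 19.4 (11.7 to 30.2). Tiles of 100 kb with similar GC had a mean of 12.8, 12.5, 13.1 and 12.7 peaks in the same order, each within the interval of its cluster. HOXD thus combined the most peaks per length with the lowest strength, with a median of 5.0 fragments per peak against 8.5 in HOXC.

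Strong peaks numbered 18 and 16 of them lay within 3 kb of a HOX start. HOXC had 6, or 5.12 per 100 kb (1.88 to 11.1), against 1.37 in tiles of similar GC, and HOXA 5, or 4.67 (1.52 to 10.9), against 1.27. HOXB had 2.5 per 100 kb and HOXD 2.04, with intervals that include their tiles' means of 0.928 and 1.16. The HOX clusters are denser in genes than most tiles, of which 193 of 1330 for HOXA held at least 5 gene starts. Against such tiles the ratio fell to 1.67 for HOXC (0.614 to 3.64) and 1.58 for HOXA (0.514 to 3.7), and both intervals then included 1.

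**Figure D4:**
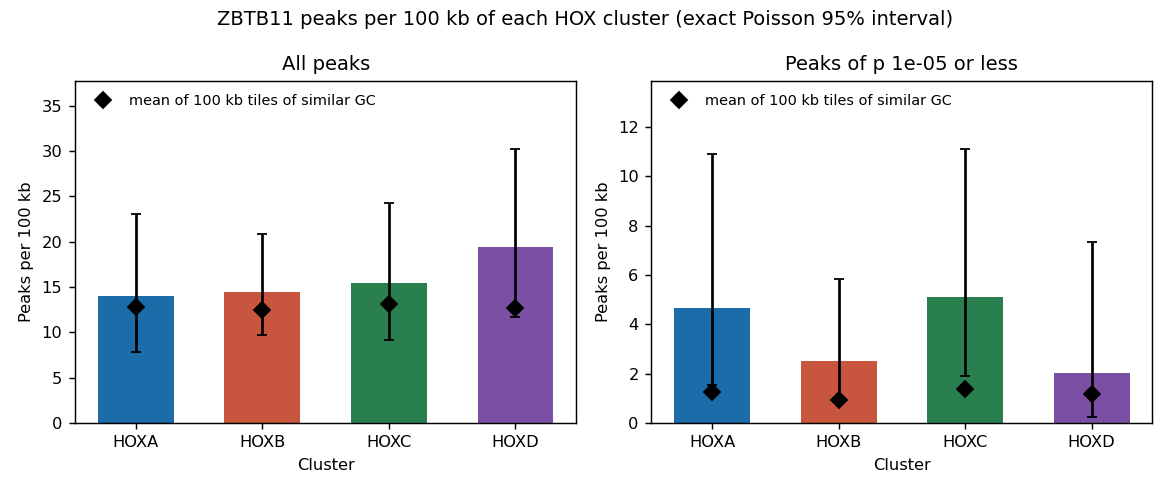
ZBTB11 peaks per 100 kb of each HOX cluster (bars, exact Poisson 95% intervals) for all peaks and for peaks of p 1e-05 or less, with the mean of 100 kb tiles of similar GC as diamonds. For all peaks each diamond lies within the interval, and for strong peaks those of HOXA and HOXC, at 1.27 and 1.37, lie below it.

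To see whether the letters of the consensus marked these peaks, CCGGAAG and CAGGAAG were searched on both strands within 50 bp of the summits. The consensus was derived from peaks of the same ChIP-seq, so its share at summits is a description and no independent support. Of the 30 distinct strongest HOX peaks 5 held either form, 16.7% (7.34 to 33.6), and none of 60 windows of the same size 500 bp to either side did, which allows up to 5.0%. The strongest peaks of other genes held it in 14.7% and their flanks in 4.08%. All 5 were among the 14 distinct strong peaks, 35.7% (16.3 to 61.2), against 19.6% of other genes' strong peaks no stronger than the top HOX peak, a value within the interval. The letters GGGCGG, the core of the GC box bound by SP-family factors, lay at 10.0% of HOX summits and 13.3% of their flanks, against 23% and 13.6% at other genes.

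Most copies of the consensus in the clusters were not under a summit. The 4 clusters hold 47 copies of CCGGAAG, 15 in HOXA, 16 in HOXB, 11 in HOXC and 5 in HOXD, and 5 of them lay within 50 bp of a summit. Of 176 copies of CAGGAAG 3 did. Within 3 kb of a start, 5 of 34 CCGGAAG copies at HOX genes lay at a summit, 14.7% (6.45 to 30.1), and 11.2% of 17254 copies at other genes. Per length, HOX windows held 10.6 copies of CCGGAAG per 100 kb against 5.67 elsewhere, and 32.5 of CAGGAAG against 34.1, values that were not matched on GC. In the RefSeq promoter table (GRCh38.p14, 250 bases before to 50 after the start), which matched 20 of the 39 genes, neither form occurred in any of the 20. The matched genes were mostly of HOXA and HOXD, with only HOXB1 from HOXB and only HOXC4 and HOXC5 from HOXC. HOXB and HOXC are thus hardly covered. HOXC4 and HOXC5 have the same RefSeq entry, so 19 promoters are distinct, which allows up to 15.8%, whereas 25.4% of 15325 other promoters held one. Within 1000 bases of the start of the same genes 10 of the 20 had one, a share with an interval of 29.9 to 70.1%, against 65.2%.

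Non-coding genes are read from between the HOX genes, often on the opposite strand. Of the 26 long non-coding RNA genes inside the clusters, 25 had some peak near a start and 12 a strong one, and of 8 miRNA genes 7 had a peak and 1 a strong one. The background over 20711 such genes outside the clusters was 66.7% for any peak and 17.0% for a strong one. Of the 13 with a strong peak, 10 shared the strongest peak of a HOX gene, so most of these values are not independent of those above. They included HOTAIR at 17.1, HOXC-AS2 at 28.3, HOXA-AS3 at 11.8, HOXB-AS4 at 5.17, MIR10A at 10.4, and the unnamed genes ENSG00000273046 and ENSG00000260597 at 60.6, ENSG00000270182 at 16.8 and ENSG00000257178 at 10.4.

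The 3 that did not share one were HOXC-AS1 at 19.8, through the peak in the HOXC9 coding exon, and LINC03057 and LINC02086, which share a peak of 12 fragments at 7.04, 186 bp downstream of the LINC03057 start and 86 bp upstream of the LINC02086 start, and lie in the long interval between HOXB9 and HOXB13. MIR10A, whose miRNA is conserved across animals and targets HOX messages, had the summit 734 bp downstream of its start. Its mature form is given from RefSeq with the seed, bases 2 to 8, in capitals.
hsa-miR-10a-5p: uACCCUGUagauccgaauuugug
MIR10B, its counterpart in HOXD, had 1.9, and MIR615 in HOXC no peak.

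The genes flanking the clusters had a higher median than the HOX genes within them when the 4 clusters were pooled, but not beside HOXC. Flanking genes were taken by order along the chromosome, so beside does not mean close here. Their distance from the cluster ran from 8.8 kb (EVX2) to 1358.1 kb (TTC30B). Of those named below, SMUG1 lies 65.2 kb away and ATF2 924.3 kb. Of the 40 flanking protein-coding genes, 5 on each side of each cluster, 25 had a strong peak, 62.5% (47.0 to 75.8), against 46.9% of protein-coding genes other than HOX. The median −log10 p of the 40 was 7.02 against 3.45 for HOX and 4.55 for all other protein-coding genes. The interval of the flanking share and that of the HOX share overlap. Some flanking genes share a strongest peak but are counted separately in this share. These are HNRNPA2B1 with CBX3, ATF7 with ATF7-NPFF, CBX5 with HNRNPA1 and NFE2L2 with AGPS. Beside HOXC, SMUG1, which encodes a uracil DNA glycosylase, had 336 fragments at 295.0 and 7 bp from its start, and CALCOCO1 on the other side 11.1. Beside HOXB, SNF8 of the ESCRT-II complex had 131.0, and SNX11 20.9. Beside HOXA the values were 25.2 at TAX1BP1 and 8.48 at HNRNPA2B1, and beside HOXD 28.7 at MTX2, a mitochondrial import gene, and 14.9 at ATF2. Beside HOXD 9 of 10 neighbours were strong at a median of 14, against 1 of 9 members at 2.57, and beside HOXB 6 of 10 at 10.5, against 5 of 10 at 4.39. Beside HOXA the medians were close, 5.5 against 5.33, and at HOXC the order was the other way, with 4 of 10 neighbours strong at 4.54 against 5 of 9 members at 7.67. The neighbours' windows had a median GC content of 44% and 1.83 CpG per 100 bp, well below the HOX windows, and the part of composition in these differences was not tested.

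Other homeobox genes and the regulators of HOX clusters were listed for comparison, each read beside the 46.9% of other protein-coding genes with a strong peak. Of 83 other homeobox genes 24 had one, 28.9% (20.3 to 39.4), with a median of 3.29, close to the 3.45 of HOX genes, and of 13 ParaHox and HOX-linked genes 3 did. Among the highest were DLX4 at 185.0 and NKX3-2 at 37.6, and in the second list MNX1 at 7.71, EVX2 at 7.7 and GBX2 at 6.84. EVX2 lies next to HOXD and is also a flanking gene. Of 11 listed TALE homeobox genes, only some of which encode DNA-binding partners of HOX proteins, 6 had a strong peak. The highest were TGIF2 at 53.9, TGIF1 at 24.6 and PBX3 at 18.

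The genes for chromatin proteins that act on the clusters stood higher. Strong peaks lay near 23 of 30 Polycomb genes, 76.7% (59.1 to 88.2), with RBBP4 at 85.9, BMI1 at 53.9 and YAF2 at 52.6, and near 17 of 23 MLL and trithorax genes, with RBBP5 at 425.0, KMT2B at 183.0 and HCFC1 at 177.0. Of 11 boundary and cohesin genes 10 had one, with NIPBL at 268.0, YY1 at 261.0 and ZBTB17 at 23.8. The windows of these lists had a median GC content of 41.6% to 47.2%, against 56.4% for the other homeobox genes.

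**Figure D5:**
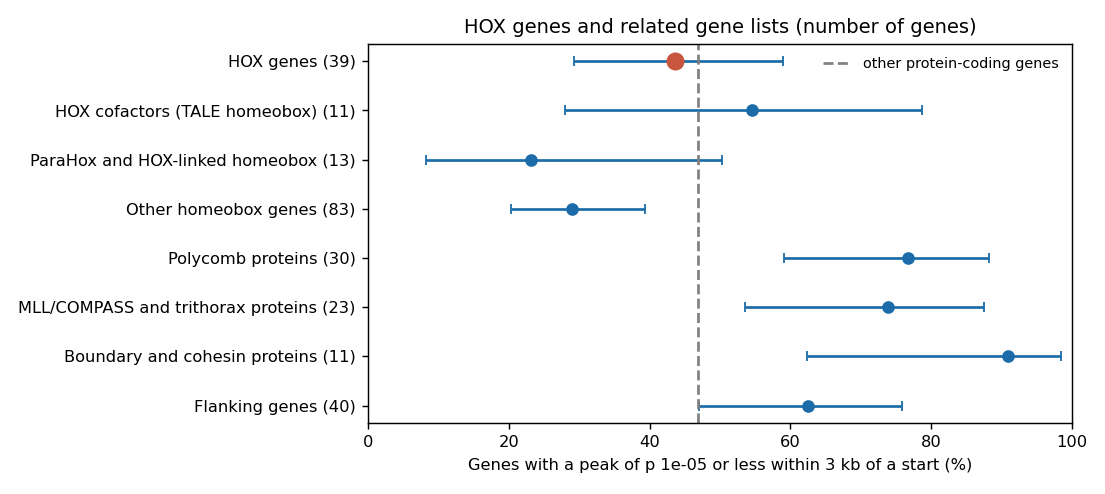
Share of genes (%) with a ZBTB11 peak of p 1e-05 or less within 3 kb of a start, with Wilson 95% intervals, for HOX genes (red point) and for 7 gene lists, with the number of genes in brackets and the dashed line at the 46.9% of other protein-coding genes. HOX genes, at 43.6%, lie between other homeobox genes at 28.9% and the flanking genes at 62.5%.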

How the data were processed

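ChIP-seq was done by the study in 1 ZBTB11, 1 IgG and 1 Input library of NCI-H1299 cells, of which the first 2 had peak lists. The authors mapped paired-end reads to the hg38 build (BWA) and ran the MACS caller on each antibody alone with a p limit of 0.05, without pooling, and the lists have the column layout of later MACS releases than the one the methods name. Per the labels, the build was hg38. The deposited lists give a score (10 times the −log10 p), the fold enrichment ratio at the summit, the −log10 p-value and the −log10 q-value, all by the authors' caller. The study states a volume of sequence for its ChIP-seq as a whole, but read totals per library are not given in the sources used here, so the depth of each is unknown, and precision is set by the fragments at each summit.

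From these lists the fragment number of each summit was solved from the fold and p-value (100.0% of ZBTB11 peaks on the main chromosomes), which sets the Poisson intervals. Each gene of GENCODE 44 received the strongest peak overlapping 3 kb around any transcript start. HOX genes were read beside all other protein-coding genes and beside those within 2 GC percentage points, and the clusters beside all 100 kb tiles of similar GC. Shares have Wilson and counts exact Poisson 95% intervals, and no test was run. Scripts used numpy 2.4.6, pandas 2.3.3, scipy 1.17.1 and pysam 0.24.0, and were tested on simulated data. The genes named were all 39 HOX genes, the non-coding cluster genes with p 1e-05 or less, the flanking gene with the strongest peak on each side of each cluster and the 3 strongest of each list, while MIR10B, MIR615 and the HOXD3 intron peak were named after their values were seen. A few items that this rule names are not reported here. The members and lists were chosen with earlier results of these data known. Alternatives changed the window, the definition of overlap, the GC band, the cluster set, the p-value limit, the tiles and the motif window.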

Additional observations from a re-analysis of the deposited data

How the results depend on the processing

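No paired analysis was possible because each antibody had 1 library and no result comes from a test. Over 10 results, 83 alternatives were computed, 17 of them chosen after seeing the data. In 72 of the 83 the value stayed within the interval of the value as reported, and in 11 it moved outside it. A turn of direction was counted only where that interval lay on 1 side of no difference. That held for the consensus results alone, and none of their alternatives turned. Other differences did change sign, for example without HOXD. There the strong-peak share minus that of genes of similar GC went from −3.28 to 6.53 points, and the same difference in median from −1.12 to 0.688. The HOX share minus that of genes of similar GC stayed within its interval for any peak, for a strong peak and for q 0.05 or less under every alternative run. For q 0.05 or less, however, the difference of −11.8 points, with an interval that includes 0, became −18.2, −16.5 and −22.0 with intervals below 0 when only the 5′ end, the GC of 500 bp or the CpG content was used, and for a strong peak it was −13.7 (−18.7 to −1.07) at p 1e-20 or less, a limit added after seeing the data. All of these intervals take each gene as independent, although the 17 HOX genes with a strong peak rest on 14 peaks. The median −log10 p of HOX minus that of genes of similar GC was −1.12 as reported, and moved to −2.08 with GC taken from 500 bp each side of the gene start and to −2.6 with CpG content in place of GC. The ratio of peaks per 100 kb to tiles of similar GC was 1.09 for HOXA, 1.16 for HOXB and 1.17 for HOXC. At p 1e-05 or less it moved to 3.67, 2.69 and 3.73, and at q 0.05 or less to 2.48, 2.08 and 2.55. For peaks of p 1e-05 or less against tiles with at least 5 gene starts it was 1.58, 0.934 and 1.67, and each interval included 1. For HOXD the ratio over all peaks was 1.52 and moved to 0.676 for peaks of p 1e-05 or less against tiles with at least 5 gene starts. The consensus share at HOX summits minus their flanks was 16.7 percentage points, and moved to 35.7 for strong peaks and to 4.32 over all peaks across the clusters. The cause of these moves was not tested. HOXD peaks held a median of 5.0 fragments, the lowest of the 4 clusters and equal to the median of the whole ZBTB11 list. Whether depth plays a part in the HOXD values was not tested. In 17 HOX genes the strongest peak held 4 to 12 fragments, at a strength where the IgG list also had peaks. No IgG peak lies on the 4 HOX chromosomes, so ZBTB11 and IgG could not be compared at any HOX gene.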
